A study of Mus musculus with 15 samples.

Results

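The 8 genes described here are the Janus kinases Jak1, Jak2, Jak3 and Tyk2 and 4 protein tyrosine phosphatases that act on them or on the receptors they serve, Ptpn1, Ptpn2, Ptpn6 and Ptpn11. They were chosen by name, from the probes whose gene name on the array is one of these symbols, and all 8 were among the 22012 genes tested. Transcript levels came from 1-colour Agilent microarrays of mucosa scraped from the distal 30 mm of the colon of female Balb/cJ mice, with 15 mice, 8 weeks old at the start, in 3 groups of 5. Water mice drank plain water. DSS vehicle mice received 4% dextran sodium sulfate (DSS), a sulfated sugar polymer that damages the lining of the colon, for 3 cycles of 4 days with 3-day washouts, and the vehicle of filgotinib. DSS filgotinib mice received the same DSS and filgotinib, an inhibitor that prefers the JAK1 protein, at 30 mg/kg by gavage once a day. The sample annotation lists a vehicle control for the water mice, whereas the description of the design names drinking water alone, and whether they were gavaged is not given in the sources used here. In every value n is 5 mice per group.

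Janus kinases sit on the inside of cytokine receptors. When a cytokine draws receptor chains together, the paired kinases phosphorylate each other, the receptor and then STAT transcription factors, which move to the nucleus. JAK1, JAK2 and TYK2 are made in most cell types and serve interferon, interleukin 6 family and interleukin 10 family receptors among others. JAK3 is made mainly in blood-derived cells and binds the common gamma chain, the shared subunit of the interleukin 2 receptor family. The phosphatases oppose them: PTP1B (Ptpn1) and TC-PTP (Ptpn2) remove phosphate from JAK proteins, SHP-1 (Ptpn6) is a negative regulator that is most abundant in blood-derived cells but also has an epithelial promoter, and SHP-2 (Ptpn11) can carry signals forward to the MAP kinase pathway. A transcript level says nothing of how active the protein is, and filgotinib acts on the protein.

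Jak3 was the member with the largest differences. By its brightest probe it was higher in DSS vehicle mice than in water mice and lower again in filgotinib mice, with no overlap in either comparison. Another of its probes passed in neither comparison, and both calls ended when slide was fitted as a fixed block. Jak1, the kinase that filgotinib is aimed at, passed the test in no comparison. Ptpn2 was higher in filgotinib mice than in water mice, although by a single one of its probes. The other 5 genes passed in no comparison, and Jak2 lay just beyond the threshold in filgotinib against DSS vehicle while its second probe passed.

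The array carries 19 probes for the 8 genes, each 60 bases long. A probe entered the test if 5 or more of the 15 arrays read it well above background, which held for 17 of the 19. The exceptions were a Ptpn1 probe (probe 3) that was above background on 0 arrays and a Tyk2 probe (probe 2) that was so on 3. Each gene is represented by its brightest tested probe, called probe 1. Values are log2 of the processed signal minus the array's 75th percentile, so that 0 is the level of that percentile and a difference of 1 is a doubling. Levels of different probes cannot be ranked against each other, and values of each gene are compared between mice only. The threshold for a call was an adjusted p under 0.05 in limma, with Benjamini-Hochberg adjustment over all genes, and "rose" and "fell" are used for such calls. Because the mucosa holds many cell types, fewer cells of a type and less RNA per cell cannot be told apart.

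The probes for Jak3 and Jak2 carry the results that follow, so 3 of them are shown, 5′ to 3′ in the sense of the transcript. Positions are those in the file headers, whose build is mm9. Probe 1 of Jak3 lies at chr8:74210801-74210860 on the + strand, in coding sequence of the kinase domain, and the array file lists it for both RefSeq transcripts of Jak3. Probe 3 of Jak3 lies at chr8:74204097-74204161 on the + strand and was designed on a cDNA described as having an apparent retained intron. The file lists no RefSeq transcript for it. Probe 2 of Jak2 lies at chr19:29363211-29363270 on the + strand, in coding sequence.
Jak3 probe 1: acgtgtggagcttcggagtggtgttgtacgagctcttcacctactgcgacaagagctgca
Jak3 probe 3: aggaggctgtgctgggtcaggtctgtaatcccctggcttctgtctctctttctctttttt
Jak2 probe 2: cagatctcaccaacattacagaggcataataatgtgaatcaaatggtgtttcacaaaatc
Probe 2 of Jak3, at chr8:74214085-74214144, needs a caution. The file lists it for 1 Jak3 transcript and also for Insl3, the gene of a relaxin-family hormone. In RefSeq on GRCm38.p6, Jak3 spans chr8:71676383-71690577 and Insl3 spans chr8:71689252-71690577, so both genes end at the same base and that probe cannot tell their transcripts apart. No probe on the array is named Insl3, and no other probe of the 8 genes lists a second gene.

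With 5 arrays a group, the number of arrays limits how precise a value can be, and an array read 50.2% to 62.1% of its probes well above background. All 11 epithelial markers, among them Epcam, Cdh1, Vil1 and Lgals4, were above background on enough arrays to be tested, and their mean moved by 0.19 ± 0.05 (SD, log2) from water to DSS vehicle mice. Of the 11, 6 rose with DSS, where 10.8% of all genes did. In filgotinib against water mice 4 were called higher, where 6.42% of all genes were. The 7 smooth muscle markers varied more between mice: their mean, relative to water mice, ran from -0.42 to 3.52 across the DSS vehicle mice and from -0.60 to 2.17 across the filgotinib mice. Water mice 1, 2 and 4 were on a slide of their own and water mice 3 and 5 shared a slide with DSS vehicle mouse 2. DSS vehicle mice 1, 4 and 5 shared a slide with filgotinib mice 1 and 2, and the other 4 arrays lay on 3 further slides that each held 1 group. The p-values measure the spread between these arrays, in which mouse and slide cannot be fully told apart.

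The first comparison asks what chronic DSS did to the transcripts of the kinases and phosphatases. In DSS vehicle against water, 1 of the 8 genes was called higher, where 10.8% of all genes were, and 0 were called lower, where 8.41% of all genes were. Values that did not overlap between the groups were found for 1 of 8 genes on the higher side, against 9.84% of all genes, and for 0 on the lower side, against 6.19%. By probe 1 all 8 log2 fold changes were above 0, with a median of 0.15 against 0.05 for all genes tested. The sign of 2 of the smallest depends on scaling: Ptpn11 was below 0 after quantile normalization and in the deposited log2 table, and Ptpn1 was below 0 after normexp background correction. The sign also depends on the probe. Probe 2 of Ptpn1, Ptpn2 and Ptpn11 and probe 4 of Ptpn6 were below 0 (-0.06, -0.13, -0.03 and -0.06), without passing. The further tested probes of Jak2 and Jak3 and probes 2 and 3 of Ptpn6 were above 0. By probes, 2 of 17 were called, both of Jak3, where 17.5% of all tested probes were called. The shares for the 8 genes are near those for all genes and are no result about them as a group.

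Jak3, the kinase of the common gamma chain receptors, had levels of -2.16, -2.07, -2.38, -2.04 and -2.16 in water mice 1 to 5. In DSS vehicle mice 1 to 5 it was at -1.35, -1.66, -1.63, -1.61 and -1.57. In filgotinib mice 1 to 5 it was at -2.25, -1.87, -2.34, -1.73 and -2.05. The lowest DSS vehicle mouse thus lay above the highest water mouse and above the highest filgotinib mouse, while the filgotinib mice spread over and above the range of the water mice. Jak3 rose 1.51-fold in DSS vehicle mice, with a 95% interval of 1.28 to 1.78. It fell by 0.48 on the log2 scale in filgotinib against DSS vehicle mice, that is 1.40-fold (SE 0.11 on the log2 scale, adjusted p = 0.0152). Filgotinib mice differed from water mice by 0.11 ± 0.11 (SE, log2; adjusted p = 0.549). The interval of that difference, -0.13 to 0.35, includes 0. The DSS rise, against the same water mice, was 0.60.

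Both Jak3 calls held with each mouse left out in turn, with changes of 0.54 to 0.63 in DSS vehicle against water and of -0.56 to -0.41 in filgotinib against DSS vehicle. The calls ended when slide was fitted as a fixed block (adjusted p = 0.222 and adjusted p = 0.0755), with changes of 0.61 and -0.55. Those are the differences within single slides, since the groups of each of these comparisons met on only 1: the first sets DSS vehicle mouse 2 alone against water mice 3 and 5, and the second sets DSS vehicle mice 1, 4 and 5 against filgotinib mice 1 and 2. The fall with filgotinib also lost its call under scaling of the arrays to a common median (-0.41, adjusted p = 0.0705). After normexp background correction it kept its call at the smallest size of any setting tried (-0.30, adjusted p = 0.0256).

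**Figure D1:**
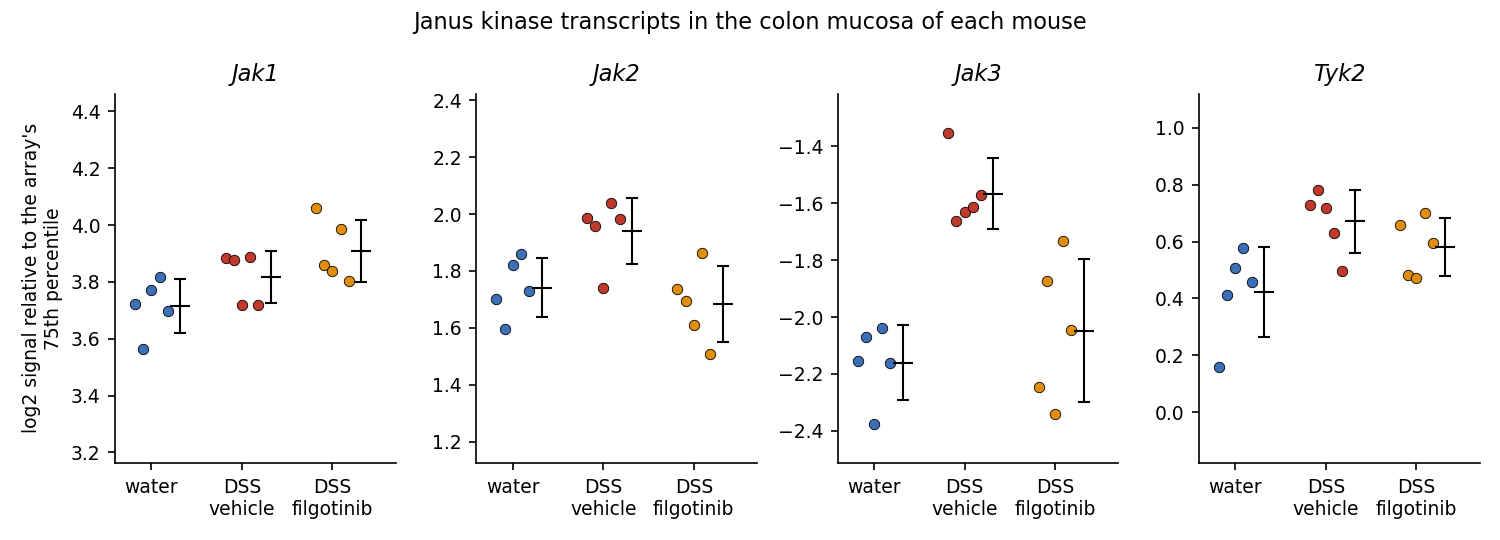
Log2 signal of Jak1, Jak2, Jak3 and Tyk2 relative to the array's 75th percentile (y axis) in each of 5 mice per group (x axis). Points are mice in the order of their numbers, the black bar is the mean and the whiskers are 1 SD; the panels span equal ranges of log2 units, and the DSS vehicle points of Jak3 lie clear of those of both other groups.

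The 3 Jak3 probes did not give the same answer. Probe 2, the one that also lists Insl3, was at -2.56, -2.74, -2.81, -2.69 and -2.66 in the water mice and at -1.83, -2.03, -1.73, -2.20 and -1.79 in the DSS vehicle mice. In filgotinib mice it was at -2.43, -2.32, -2.44, -2.19 and -2.61, above the water range in 4 of 5 and overlapping the DSS vehicle mice at filgotinib mouse 4. It rose 1.71-fold with DSS (adjusted p = 0.000304 over all probes, limma) and fell by 0.48 on the log2 scale with filgotinib (adjusted p = 0.00999). Against water the filgotinib mice differed by 0.29 ± 0.10 (SE, adjusted p = 0.0784 over all probes), where probe 1 differed by 0.11. Over the 15 mice probes 1 and 2 correlated at r = 0.86, and at r = 0.46 for the deviations from the group means. Probe 3, on the retained-intron cDNA, had differences of 0.08 ± 0.09 (SE) and -0.01 ± 0.09 in the same comparisons (adjusted p = 0.589 and adjusted p = 0.948), and its correlation with probe 1 was r = 0.02. The interval of its DSS change, -0.12 to 0.27, lies below the lower bound of that of probe 1, 0.35. It was well above background on all 15 arrays. Within each array, probe 1 minus probe 3 was 0.52 ± 0.18 (SD) higher in DSS vehicle mice than the mean of water mice, ranging from 0.32 to 0.72, and 0.05 ± 0.35 higher in filgotinib mice. This difference does not depend on the percentile subtracted from each array, though quantile normalization or normexp could change it, and no test was run on it.

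**Figure D2:**
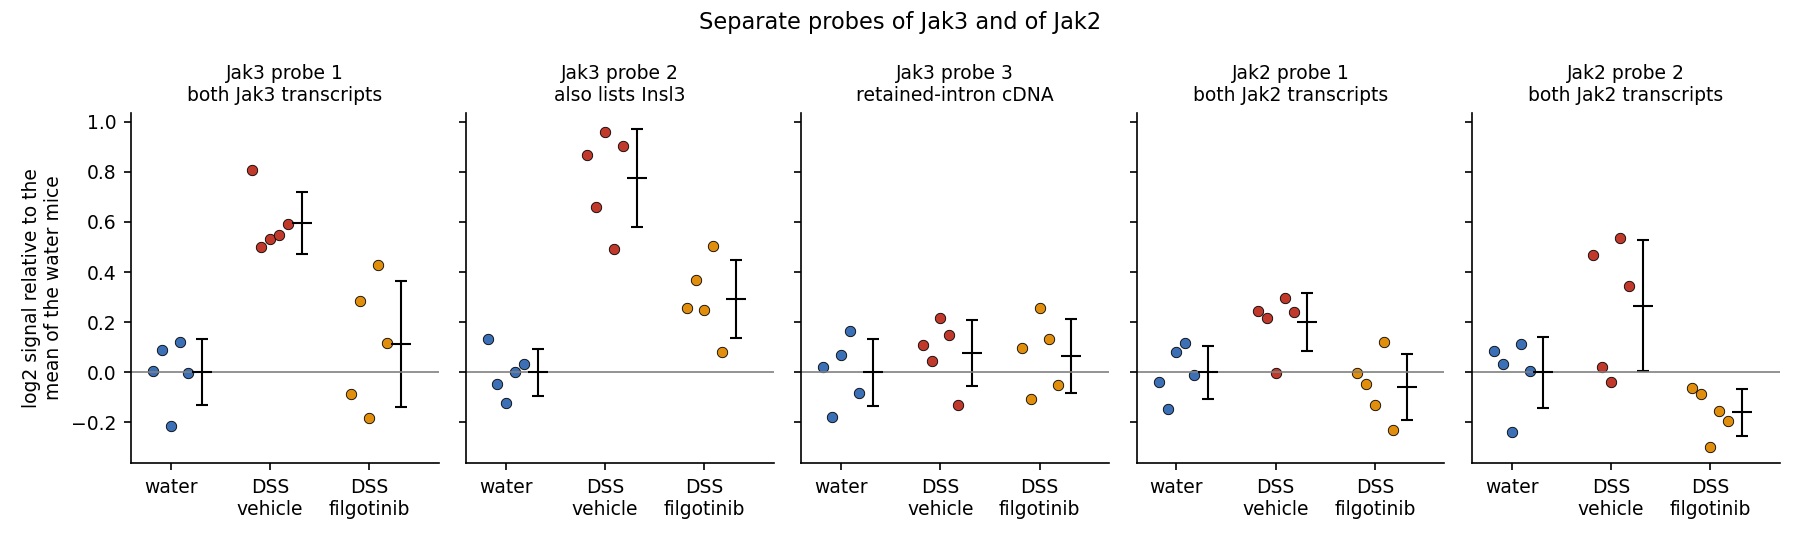
Log2 signal of 3 Jak3 probes and 2 Jak2 probes relative to the mean of the water mice for that probe (y axis) in each mouse of the 3 groups (x axis); black bars are means and whiskers 1 SD. Jak3 probes 1 and 2 are high in DSS vehicle mice and intermediate or low in filgotinib mice, Jak3 probe 3 stays within 0.3 of the water mean in each mouse, and both Jak2 probes are lowest on average in filgotinib mice.

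Jak1, the preferred target of filgotinib, had levels of 3.72, 3.56, 3.77, 3.82 and 3.70 in water mice and of 3.88, 3.88, 3.72, 3.89 and 3.72 in DSS vehicle mice. In filgotinib mice it was at 4.06, 3.86, 3.84, 3.98 and 3.80. The groups overlapped, with means that stepped up from water through DSS vehicle to filgotinib by 0.10 and then 0.09, each within the spread of the mice. Filgotinib against DSS vehicle gave 0.09 ± 0.07 (SE, adjusted p = 0.417), with an interval of -0.06 to 0.24, so a fall in Jak1 transcript under the drug of more than 0.06 lies outside that interval. Filgotinib against water gave 0.19 ± 0.07 (adjusted p = 0.0864), which passed under normexp background correction (0.20, adjusted p = 0.0451) and under no other scaling tried.

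Jak2, which serves the receptors for interferon gamma, growth hormone and GM-CSF, was at 1.70, 1.59, 1.82, 1.86 and 1.73 in water mice and at 1.99, 1.96, 1.74, 2.04 and 1.98 in DSS vehicle mice. In filgotinib mice it was at 1.74, 1.69, 1.61, 1.86 and 1.51. Of the DSS vehicle mice 4 lay above every water and filgotinib mouse, and mouse 3 fell among them. DSS against water gave 0.20 ± 0.08 (SE, adjusted p = 0.0947). It passed in 1 of 15 fits with a mouse left out, the fit without DSS vehicle mouse 3 (0.25, adjusted p = 0.0425). Adjusted p reached 0.206 over these fits, and the difference passed in 1 of 13 other settings. Filgotinib against DSS vehicle gave -0.26 ± 0.08 (adjusted p = 0.0516). With a mouse left out it passed in 2 of 15 fits, with adjusted p up to 0.126 over the 15. Those 2 were without DSS vehicle mouse 3 (-0.31, adjusted p = 0.0221) and without filgotinib mouse 4 (-0.30, adjusted p = 0.0276). It also passed in 5 of 13 other settings, quantile normalization among them.

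Probe 2 of Jak2, the coding probe shown above, gave a larger fall with filgotinib. It was at -1.36, -1.81, -1.87, -1.30 and -1.49 in DSS vehicle mice and at -1.89, -1.92, -2.13, -1.99 and -2.02 in filgotinib mice, without overlap. It fell by 0.43 on the log2 scale (SE 0.11, adjusted p = 0.0297 over all probes, limma). In water mice it was at -1.75, -1.80, -2.07, -1.72 and -1.83, overlapping both other groups, and DSS raised it by 0.27 ± 0.11 without passing (adjusted p = 0.115). Both Jak2 probes are listed for the same 2 RefSeq transcripts and correlated at r = 0.72 over the 15 mice, and at r = 0.41 for the deviations from the group means.

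Tyk2, the partner kinase of the type I interferon and interleukin 12 receptors, was at 0.16, 0.41, 0.51, 0.58 and 0.46 in water mice and at 0.73, 0.78, 0.72, 0.63 and 0.50 in DSS vehicle mice. In filgotinib mice it was at 0.66, 0.48, 0.47, 0.70 and 0.60. Water mouse 1 was the lowest of all 15, and DSS vehicle mouse 5 lay inside the range of the water mice. DSS against water gave 0.25 ± 0.08 (SE, adjusted p = 0.0525). It passed in 3 of 13 other settings, quantile normalization among them. With a mouse left out it passed in 3 of 15 fits, with adjusted p up to 0.108 over the 15. Those 3 were without water mouse 4, DSS vehicle mouse 5 or filgotinib mouse 4 (adjusted p = 0.0463, adjusted p = 0.0349 and adjusted p = 0.0497). Filgotinib against DSS vehicle gave -0.09 ± 0.08 (adjusted p = 0.520).

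Differences between kinases on the same array do not depend on the percentile subtracted from it, though quantile normalization or normexp could change them. In the values used here they separated Jak2 from Jak1 under filgotinib. Jak2 minus Jak1, relative to its water mean, was between -0.05 and 0.02 in water mice and between -0.01 and 0.24 in DSS vehicle mice. It was between -0.35 and -0.15 in filgotinib mice, below every mouse of both other groups. Jak3 minus Jak1 was between 0.34 and 0.64 in DSS vehicle mice and between -0.43 and 0.16 in filgotinib mice, against -0.27 to 0.24 in water mice. Tyk2 minus Jak1 overlapped between water mice and each other group: it ran from -0.27 to 0.14 in water mice, from 0.04 to 0.29 in DSS vehicle mice and from -0.11 to 0.09 in filgotinib mice. No test was run on these differences, and they do not say which of a pair moved.

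**Figure D3:**
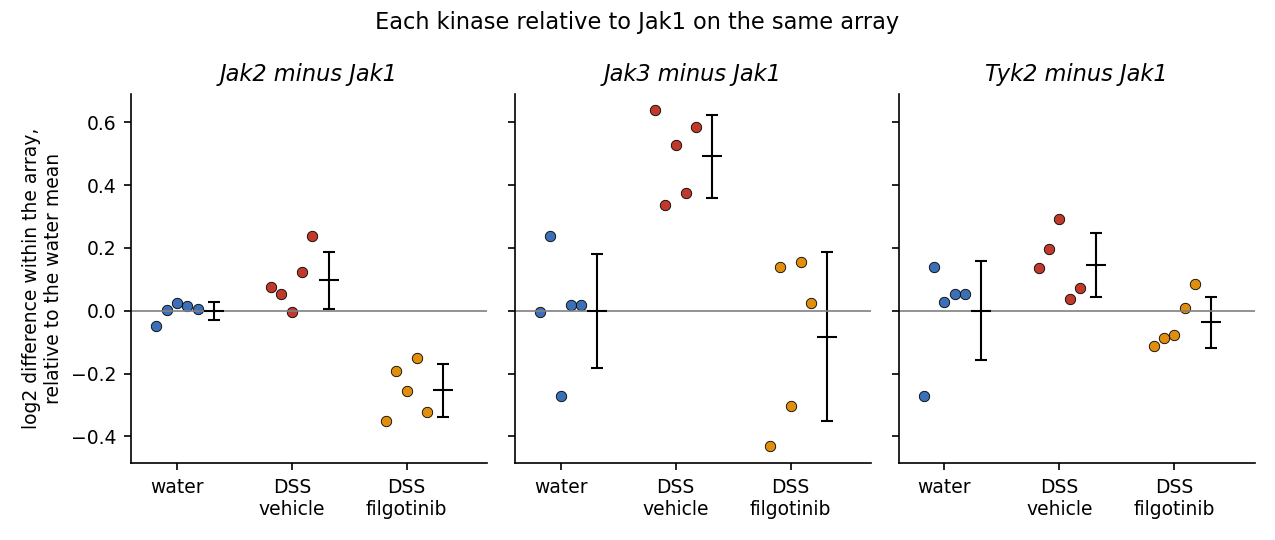
Difference in log2 signal between Jak2, Jak3 or Tyk2 and Jak1 on the same array, relative to the mean difference in water mice (y axis), for each mouse of the 3 groups (x axis); black bars are means and whiskers 1 SD. Jak2 minus Jak1 lies between -0.35 and -0.15 in the filgotinib mice, below all other mice, and Jak3 minus Jak1 is highest in the DSS vehicle mice.

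The second comparison asks which of these transcripts differed when filgotinib was added to DSS. Here 1 of 8 genes, Jak3, was called lower, where 4.53% of all genes were, and 0 were called higher, where 6.79% were. Values without overlap were found for the same 1 gene on the lower side, against 3.12% of all genes, and for 0 on the higher side, against 4.87%. The median change of the 8 genes was -0.07 against 0.00 for all genes. By probes, 3 of 17 were called, Jak3 probes 1 and 2 and Jak2 probe 2, where 9.85% of all tested probes were.

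In filgotinib against water, 1 of 8 genes, Ptpn2, was called higher, where 6.42% of all genes were, and 0 were called lower, where 3.41% were. Values without overlap were found for 0 genes in either direction, against 6.75% of all genes on the higher and 2.82% on the lower side, and 1 of 17 probes was called, where 8.61% of all probes were. The 3 comparisons share their groups in pairs, so their values are set side by side and were not used to support each other.

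**Figure D4:**
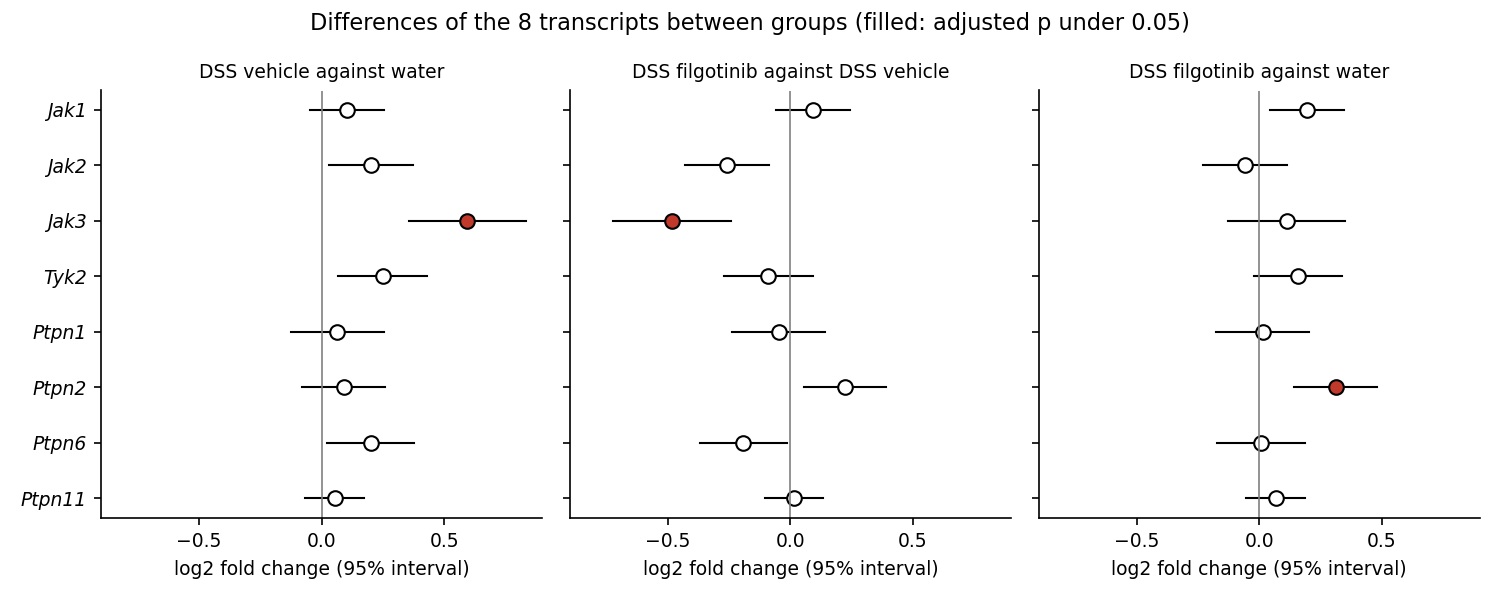
Log2 fold change (x axis) of each of the 8 genes (y axis) in the 3 comparisons, from the fit over all 22012 genes; bars are 95% intervals and filled points are genes called at an adjusted p under 0.05. Jak3 is called in DSS vehicle against water (0.60) and in DSS filgotinib against DSS vehicle (-0.48), and Ptpn2 in DSS filgotinib against water (0.31).

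Among the phosphatases, Ptpn2, which dephosphorylates JAK1 and JAK3, was at 2.49, 2.37, 2.67, 2.45 and 2.55 in water mice and at 2.59, 2.66, 2.57, 2.67 and 2.49 in DSS vehicle mice. In filgotinib mice it was at 2.72, 2.94, 2.60, 2.88 and 2.95. Of the filgotinib mice 4 lay above every other mouse, and mouse 3 lay within the range of both other groups. Ptpn2 rose 1.24-fold in filgotinib against water mice (0.31 ± 0.08 SE on the log2 scale, adjusted p = 0.0278), while filgotinib against DSS vehicle gave 0.22 ± 0.08 (adjusted p = 0.0806) and DSS against water 0.09 ± 0.08 (adjusted p = 0.452).

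The Ptpn2 call was not firm. It held in 9 of 15 fits with a mouse left out, being lost without water mouse 2, 4 or 5 or filgotinib mouse 2, 4 or 5, with adjusted p between 0.0511 and 0.0725 and a change of 0.28 to 0.32. It held in 6 of 13 other settings, over which the change ran from 0.18 to 0.42, and was lost, for example, after quantile normalization (0.25, adjusted p = 0.0651) and in the deposited log2 table (0.25, adjusted p = 0.0696). No slide held both filgotinib and water mice. A second Ptpn2 probe, listed for 1 of the 2 RefSeq transcripts where probe 1 is listed for both, gave 0.05 ± 0.10 (SE) in the same comparison (adjusted p = 0.780 over all probes). That probe ran from -0.84 to -0.72 in water mice and from -1.02 to -0.57 in filgotinib mice. In filgotinib against DSS vehicle it gave 0.18 ± 0.10 (adjusted p = 0.237 over all probes), where probe 1 gave 0.22. In DSS vehicle against water it gave -0.13 ± 0.10 (adjusted p = 0.366), where probe 1 gave 0.09. The 2 probes correlated at r = 0.56 over the 15 mice, and at r = 0.68 for the deviations from the group means.

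Ptpn6, the SHP-1 gene, was at 1.46, 1.23, 1.15, 1.21 and 1.28 in water mice and at 1.51, 1.60, 1.44, 1.34 and 1.45 in DSS vehicle mice. In filgotinib mice it was at 1.22, 1.08, 1.27, 1.50 and 1.30. Filgotinib mouse 4 and water mouse 1 reached the DSS vehicle range, and the other mice of these groups lay below it. DSS against water gave 0.20 ± 0.08 (SE, adjusted p = 0.104) and filgotinib against DSS vehicle -0.19 ± 0.08 (adjusted p = 0.144). A further probe in coding sequence, probe 3, gave nearly the same differences, 0.19 ± 0.09 and -0.22 ± 0.09 (adjusted p = 0.166 and adjusted p = 0.154), and correlated with probe 1 at r = 0.94 over the 15 mice. Both of these probes are listed for both RefSeq transcripts. A dim probe near the start of transcript variant 1, listed for that transcript alone, gave 0.13 ± 0.14 and -0.07 ± 0.14, and a dim probe designed on a partial cDNA of the motheaten mutant of this gene gave -0.06 ± 0.16 and -0.04 ± 0.16. None of the 4 passed in any comparison.

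Ptpn1 and Ptpn11 showed the least change. Ptpn1 ran from 3.03 to 3.35 in water mice, from 3.10 to 3.46 in DSS vehicle mice and from 3.10 to 3.36 in filgotinib mice, and its 3 changes were 0.06, -0.05 and 0.02 (adjusted p = 0.651 to 0.936, all SE 0.09), with signs that turn under several settings. Its probe 2 was lower in filgotinib mice, between -0.38 and 0.03, than in water mice, between -0.08 and 0.31, by 0.29 ± 0.10 on the log2 scale without passing (adjusted p = 0.0820 over all probes). Ptpn11 ran from 3.88 to 4.01 in water mice, from 3.97 to 4.06 in DSS vehicle mice and from 3.92 to 4.12 in filgotinib mice. With the smallest SE of the 8 genes, its DSS change was 0.05 ± 0.06 (adjusted p = 0.537), with an interval of -0.07 to 0.17. Its filgotinib change against DSS vehicle was 0.01 ± 0.06 (adjusted p = 0.893), with an interval of -0.10 to 0.13. The 2 Ptpn11 probes, the second of which spans chr5:121593145-121593611 on the - strand, in coding sequence across an intron, did not track each other (r = -0.23 over the 15 mice).

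**Figure D5:**
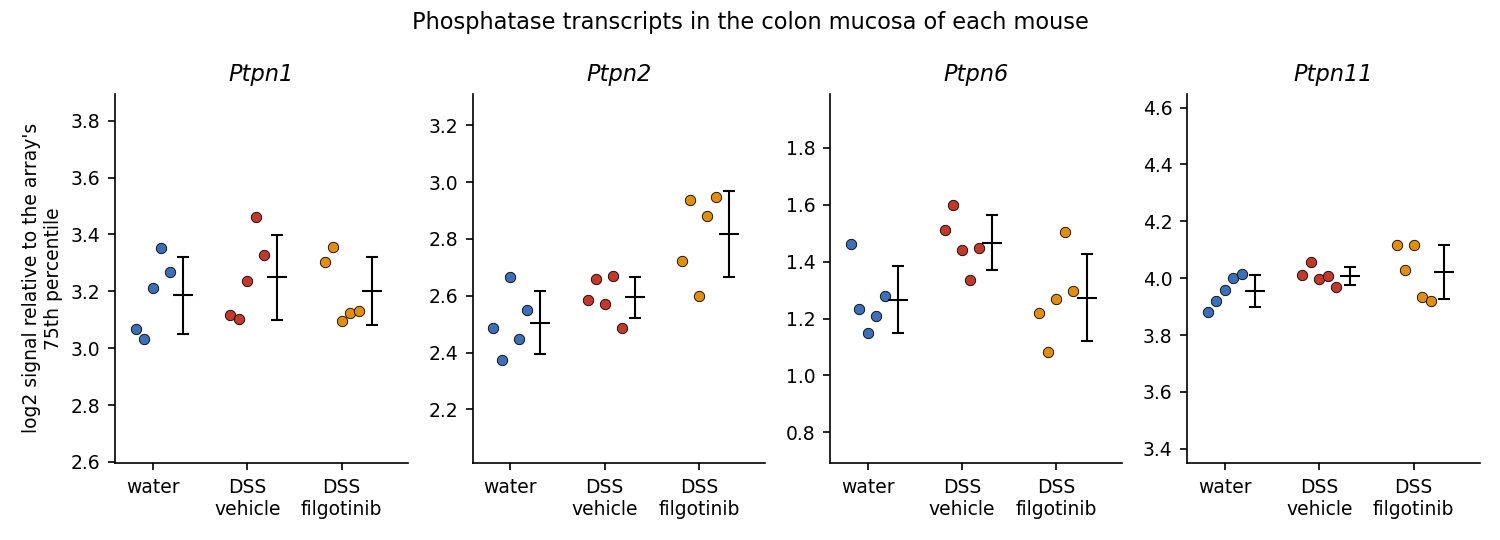
Log2 signal of Ptpn1, Ptpn2, Ptpn6 and Ptpn11 relative to the array's 75th percentile (y axis) in each of 5 mice per group (x axis). Points are mice in the order of their numbers, black bars are means and whiskers 1 SD; the panels span equal ranges of log2 units, Ptpn2 is highest in filgotinib mice and Ptpn11 has the narrowest spread.

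Because Jak3 and Ptpn6 are abundant in blood-derived cells, markers of such cells were set beside them. The shares to read beside all marker counts, here and below, are those of all genes. With DSS 10.8% of all genes rose and 8.41% fell, and with filgotinib 6.79% rose and 4.53% fell. Of 14 pan-leukocyte markers 12 were tested, and Cd53 and Ikzf1 were not above background on enough arrays. With DSS 4 of the 12 were called higher, Dock2, Laptm5, Coro1a and Cd52, 1 fell, Vav1, and 11 had a positive change, with a median of 0.72. Dock2 was well above background on 4 DSS vehicle arrays, 1 water array and 0 filgotinib arrays, so it entered the test mainly through the group where it was high. Without it, a choice made after seeing the data, 3 of 11 rose, with a median of 0.69. With filgotinib 1 of the 12 rose, Vav1, and 0 fell, and the median was -0.48, or -0.44 without Dock2. The mean of the 12 relative to water ran from 0.30 to 1.28 in DSS vehicle mice, from -0.11 to 0.79 in filgotinib mice and from -0.24 to 0.42 in water mice. The log2 of their summed signal ran from 3.96 to 4.49, from 3.86 to 4.20 and from 3.75 to 4.10. Ptprc, the CD45 gene, had a change of 0.09 ± 0.08 (SE, adjusted p = 0.426) with DSS.

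Of 12 T and NK cell markers 9 were tested, with Cd8a, Ncr1 and Klrb1c left out as too dim. All 9 had a positive change with DSS, and 2 passed: the cytotoxic granule gene Nkg7, 1.59-fold (adjusted p = 0.0314), and the T cell receptor chain Cd247, 1.39-fold (adjusted p = 0.00718). With filgotinib all 9 had a negative change, with a median of -0.28, and Nkg7 fell by 0.82 on the log2 scale (adjusted p = 0.0187). Their mean relative to water ran from 0.22 to 1.01 in DSS vehicle mice, from -0.36 to 0.47 in filgotinib mice and from -0.22 to 0.12 in water mice, and the log2 of their summed signal from 3.14 to 3.44, from 3.01 to 3.25 and from 2.82 to 2.97. Jak3 minus the pan-leukocyte mean was -0.16 ± 0.40 (SD) in DSS vehicle mice and -0.22 ± 0.35 in filgotinib mice relative to 0.00 ± 0.30 in water mice. With Dock2 left out of that mean it was -0.04 ± 0.38 and -0.14 ± 0.36. The part of leukocyte RNA in the Jak3 difference was not tested.

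Of the other marker lists, the macrophage and monocyte genes had positive changes with DSS in 10 of 10 and 0 passed, with a mean relative to water of 1.04 ± 0.73 (SD). With filgotinib 10 of 10 had a negative change, with a median of -0.54, and 0 passed. In the neutrophil list 2 of 5 rose with DSS, and with filgotinib 1 fell, S100a9, and all 5 changes were negative. In the B and plasma cell list 2 of 6 rose with DSS, but only 3 of the 6 changes were positive. Their mean relative to water ran from -0.78 to 2.00 across the DSS vehicle mice. With filgotinib 0 of the 6 passed and 2 changes were positive, with a median of -0.47. In the mast cell list 2 of 4, the mast cell protease genes Mcpt1 and Mcpt4, rose with DSS and fell with filgotinib. The other tested markers of that list, Kit and Tpsb2, had changes of the opposite sign in both comparisons and did not pass. The part of these cells in the Jak3 changes was not tested. In the fibroblast list 0 of 7 passed, with a median of 1.66 for DSS and -1.44 for filgotinib, and in the smooth muscle list 0 of 7 passed. In the endothelium list 0 of 4 passed, with a median of 0.20 for DSS.

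The rest of the pathway was described from lists of genes around the kinases. Of 28 tested receptor chains that bind JAKs, 10 rose and 2 fell with DSS, where 10.8% and 8.41% of all genes did, with a median change of 0.34 against 0.05 for all genes. The common gamma chain Il2rg, to which JAK3 binds, rose 1.98-fold (adjusted p = 0.00657). So did chains that form receptors with it, Il2rb 2.05-fold (adjusted p = 0.0134), Il7r 2.65-fold (adjusted p = 0.0285) and Il4ra 2.33-fold (adjusted p = 0.00089), while Il21r, another such chain, had a change of -0.10 (adjusted p = 0.658). Csf2rb, the shared chain of the GM-CSF receptor family, rose 2.74-fold, and Osmr, the oncostatin M receptor, 4.14-fold (adjusted p = 0.0268 and adjusted p = 0.0292). Lifr, the leukaemia inhibitory factor receptor, fell by 1.54 on the log2 scale (adjusted p = 0.00124). Il10ra and Prlr had changes of 1.85 and -0.64 and did not pass (adjusted p = 0.0791 and adjusted p = 0.0562). Il10ra was well above background on only 2 water arrays, and Prlr on only 2 DSS vehicle arrays.

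With filgotinib added to DSS the median of the receptor chains was -0.18, against 0.00 for all genes. Of the lists described below, the other non-receptor tyrosine kinases had a median of -0.16 there and the other JAK regulators -0.13. The other non-receptor tyrosine phosphatases had -0.002, so a median below that of all genes was not particular to the receptor chains. Of the 28, 1 rose, where 6.79% of all genes did, and 1 fell, where 4.53% did. The first was Lifr at 1.87-fold (adjusted p = 0.0323) and the second the interferon lambda receptor Ifnlr1, which fell by 0.69 on the log2 scale (adjusted p = 0.0239). Il2rg had a difference of -0.21 ± 0.21 (SE, adjusted p = 0.554) there. The largest changes that did not pass were those of Il10ra and Osmr, -1.57 and -0.91 (adjusted p = 0.159 and adjusted p = 0.341). Il10ra was well above background on only 3 filgotinib arrays. Against water, Il2rg and Il4ra were higher in filgotinib mice, 1.71-fold and 1.60-fold (adjusted p = 0.0373 and adjusted p = 0.0349).

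Of 14 tested STAT and SOCS genes, the targets and feedback inhibitors of the kinases, 4 rose and 0 fell with DSS (Socs3 and Stat3 among them), and 0 rose and 4 fell with filgotinib. Of all genes 10.8% rose and 8.41% fell with DSS, and 6.79% rose and 4.53% fell with filgotinib. The medians of the list were 0.13 and -0.25, against 0.05 and 0.00 for all genes. The falls were Socs3, Cish, Socs5 and Stat3, with log2 changes of -1.58, -0.46, -0.30 and -0.29 (adjusted p = 0.00489, adjusted p = 0.0375, adjusted p = 0.0316 and adjusted p = 0.0467), and Socs2 had a change of -0.34 that did not pass (adjusted p = 0.123). No gene of this list passed in filgotinib against water, where Socs3 was at 0.79 and Socs2 at -0.44 (adjusted p = 0.0864 and adjusted p = 0.0573).

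Other proteins that regulate or dock on JAKs, 20 genes, had a median change of 0.00 with DSS. Of these 3 rose, where 10.8% of all genes did: the insulin receptor substrates Irs2 1.95-fold and Irs1 1.82-fold (adjusted p = 0.00252 and adjusted p = 0.00137), and Ptprt, a receptor phosphatase that acts on STAT3, 1.70-fold (adjusted p = 0.00371). With filgotinib 2 of the 20 fell, where 4.53% of all genes did: Ptprt and Irs1, by 0.92 and by 0.61 on the log2 scale (adjusted p = 0.00283 and adjusted p = 0.0149). Ptprt was well above background on 5 DSS vehicle arrays but on only 2 filgotinib arrays, so the size of its fall is uncertain. Sh2b2, an adaptor that binds JAK2, had the largest change that did not pass, 0.98 with DSS (adjusted p = 0.200). It was well above background on only 3 DSS vehicle and 2 water arrays. In filgotinib against water, Pias2, of the inhibitors of activated STATs, rose 1.28-fold (adjusted p = 0.0192).

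Of 10 other tested non-receptor tyrosine phosphatases, 2 rose and 1 fell with DSS, where 10.8% and 8.41% of all genes did. Ptpn18 rose 1.28-fold and Ptpn5 1.21-fold (adjusted p = 0.00846 and adjusted p = 0.0408), and Ptpn4 fell by 0.39 on the log2 scale (adjusted p = 0.0146), with a median of 0.03 over the list, in which 5 of 10 changes were positive. Ptpn14 had the largest difference, -0.80, and did not pass (adjusted p = 0.237). With filgotinib 0 of 10 passed, and Ptpn13 and Ptpn14 had changes of 0.46 and 0.34 (adjusted p = 0.0874 and adjusted p = 0.671). Ptpn14 was well above background on 5 water arrays but on only 3 DSS vehicle and 2 filgotinib arrays.

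Of 26 other tested non-receptor tyrosine kinases, 8 rose and 1 fell with DSS, where 10.8% and 8.41% of all genes did, with a median of 0.15 against 0.05. They included Ptk6, an epithelial kinase, at 2.40-fold (adjusted p = 0.0011), and the kinases of antigen receptor signalling Btk at 2.02-fold and Syk at 1.76-fold (adjusted p = 0.00131 and adjusted p = 0.00948), while Matk fell by 0.35 on the log2 scale (adjusted p = 0.00733). Zap70, a kinase of T cells, had a change of 0.66 that did not pass (adjusted p = 0.0809). Txk, also of T cells, was well above background on 4 DSS vehicle arrays but on only 1 water array, and no difference is given for it. With filgotinib 1 fell and 2 rose, where 4.53% and 6.79% of all genes did: Ptk6 fell by 1.03 on the log2 scale (adjusted p = 0.00606), and Fer and Matk rose 1.25-fold and 1.20-fold (adjusted p = 0.0494 and adjusted p = 0.0448).

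The genes whose values over the 15 mice were most like those of a member are given as a description. For Jak3 these were Chn2, Tc2n and Iapp (r = 0.93, 0.93 and 0.92, and 0.75, 0.84 and 0.68 for deviations from the group means). For Jak2 they were Dtx3l, Parp9 and Sft2d2 (r = 0.90, 0.89 and 0.88, and 0.79, 0.75 and 0.73 within groups). Jak1 was closest to Cd151 (r = 0.92), Tyk2 to Mvp (r = 0.92), Ptpn1 to Myo7a (r = 0.82), Ptpn2 to Cog2 (r = 0.96), Ptpn6 to Nrap (r = 0.96) and Ptpn11 to Zfp84 (r = 0.82). Among the members themselves, deviations from the group means correlated most for Jak1 with Jak2 (r = 0.79) and were most opposed for Ptpn1 with Ptpn6 (r = -0.68), over mice that share an array scaling.

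Promoter windows of RefSeq (GRCm38.p6), 250 bases before to 50 after the start, were found for 7 of the 8 genes. None of the 7 held TTCNNNGAA, the letters of an interferon gamma activated site, which reads the same on both strands and is in 8.30% of all 32851 windows. None held the core of the interferon stimulated response element, GAAA, any 2 bases and GAAA, searched on both strands, which is in 3.44% of windows. This says only that these letters are not in these windows.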

How the data were processed

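The scanner files give a processed intensity per spot, from which Agilent Feature Extraction 11.5.1.1 had subtracted background and spatial trend, per the file headers, a version that the submitters' processing notes also give. The deposited series table gives log2 values that correlated with log2 of their own arrays at r of 0.9988 or more across probes, with column medians between 8.84 and 8.86, and its normalization is not given in the sources used here. Positions are those of mm9, per the file headers; the header of DSS vehicle mouse 3 names no build.

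From the processed signal, log2 was taken and the 75th percentile of the array subtracted, without control spots and without 101 probes that carried an outlier flag, which left 56504 probes. No spot was saturated. The 75th percentile of the signal was 684 to 813 in water, 570 to 667 in DSS vehicle and 552 to 663 in filgotinib mice. Groups were compared with limma 3.58.1 in R 4.3.3, in 1 fit over 15 arrays, two-sided, with Benjamini-Hochberg adjustment over 22012 genes, or over 33466 probes where single probes are given. Limma is named in the submitters' processing notes too. The code was tested on simulated data. Tables used Python 3.11.15, pandas 2.3.3 and scipy 1.17.1, and figures matplotlib 3.10.9.

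The members and the gene lists were chosen with earlier results of these data known. All 8 members are named. Of each of the 5 gene lists the text names the called genes, up to 6 by size of change, and the 2 largest changes that did not pass, with Il2rg also named, chosen after its values were seen. Some genes that this rule would name are not reported here. For each member the 3 genes with the highest correlation were found. Marker genes of 10 lists came from general knowledge. Sequences of the probes came from the array files and promoters from RefSeq.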

Additional observations from a re-analysis of the deposited data

Results flagged for a closer look

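Of the 24 sets of 5 values (8 genes in 3 groups), chance places about 1 in 20 with a mouse that far from its group, and 1 was found. In DSS vehicle mouse 3, Jak2 was at 1.74, the lowest of its group, with a gap to the next mouse of 0.73 of the group's range, above Dixon's critical value of 0.71. That array was alone on its slide. The other Jak2 probe was also lowest there among the DSS vehicle mice, at -1.87, close to mouse 2 at -1.81.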

How the results depend on the processing

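Precision is limited by 5 mice a group and by the slides. Of the 8 members' changes in 3 comparisons, 617 of 688 values under another setting kept their direction and their side of the threshold, 35 turned sign, 18 newly passed, 16 no longer passed and 2 moved by more than the spread between mice. The turned values were of Ptpn1, Ptpn2, Ptpn6 and Ptpn11, which passed in no comparison apart from Ptpn2 in filgotinib against water, where it did not turn. The cause was not tested for any of these.

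Genes called in DSS vehicle against water numbered 4220, with 2522 at a common median, 84 with slide as a fixed block and 2829 to 4645 with a mouse left out. Members called higher there numbered 1, with 2 after quantile normalization, normexp, the filter on all arrays or an intensity trend, 0 with slide as a fixed block and 1 to 2 with a mouse left out.

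Genes called in filgotinib against DSS vehicle numbered 2492, with 1229 without the filter on dim probes, 437 with slide as a fixed block, 1276 with the 2 groups alone and 1315 to 3060 with a mouse left out. Members lower numbered 1, with 0 at a common median or with slide as a fixed block, 2 after quantile normalization, in the deposited table, with all-array filtering, with the mean of probes or an intensity trend, and 1 to 2 with a mouse left out. Members higher numbered 0, with 1 when scan day was a block and 0 to 1 with a mouse left out.

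Genes called in filgotinib against water numbered 2164, with 521 at a common median, 1197 after quantile normalization, 4437 after normexp, 1247 in the deposited table, 9053 without the filter, 1416 with the mean of probes, 2 with slide as a fixed block, 1396 with slide as a random block, 1079 with the 2 groups alone and 745 to 2886 with a mouse left out. Normexp moved the median of all genes there to 0.12. Members higher numbered 1, with 2 after normexp, 0 at a common median, after quantile normalization, in the deposited table, with the mean of probes, with slide as a fixed block or with the 2 groups alone, and 0 to 1 with a mouse left out.

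With the replicate block, called genes numbered 3412 for DSS vehicle over water, 1608 for filgotinib over DSS vehicle and 788 for filgotinib over water, and members higher in the last numbered 0, Ptpn2 being lost (adjusted p = 0.0742). The block changed no other member's call. The numbers only name the mice: deviations of same-numbered mice correlated between -0.52 and 0.53.

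Values that turned sign in DSS vehicle against water were Ptpn11 at -0.018 after quantile normalization and -0.012 in the deposited table, Ptpn1 at -0.0050 after normexp, -0.00092 with the mean of probes and -0.14 with slide as a fixed block, and Ptpn2 at -0.021 with the mean of probes. Within slide 4, Ptpn1 was at -0.14 and Ptpn6 at 0.38, without a test. In filgotinib against DSS vehicle, Ptpn1 was at 0.029 at a common median, 0.027 with slide as a fixed block and -0.087 to 0.0048 with a mouse left out. Ptpn11 was at -0.014 after quantile normalization, -0.0082 after normexp, -0.018 in the deposited table, -0.020 with the mean of probes and -0.0088 to 0.040 with a mouse left out. In filgotinib against water, Ptpn1 was at -0.069 after quantile normalization, -0.077 after normexp, -0.073 in the deposited table, -0.14 with the mean of probes, -0.11 with slide as a fixed block and -0.024 to 0.057 with a mouse left out. Ptpn6 was at -0.018, -0.015, -0.023 and -0.012 in the first 4 of these settings and -0.049 to 0.057 with a mouse left out. Ptpn11 was at -0.032 after quantile normalization, -0.030 in the deposited table and -0.010 with the mean of probes.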
